A study of Mus musculus with 40 samples.

Results

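RNA levels were compared between mouse germinal vesicle (GV) oocytes labelled G9a cKO, a conditional knockout of the histone methyltransferase G9A, and their control oocytes. A GV oocyte is a full-grown oocyte arrested in the first meiotic prophase, before its nuclear envelope breaks down. The comparison used 3 libraries labelled G9a cKO and the 3 control libraries whose titles carry the same line prefix (GKAO). Each sample was 100 to 200 oocytes dissected by hand from the ovaries of mice aged 22 to 25 days. The Cre driver, the deleted exons of Ehmt2 (the gene that encodes G9A) and the genotype of the controls beyond the word control are not given in the sources used here. Titles carry 1 number for control replicates 1 and 2 and G9a cKO replicate 1, and another for control replicate 3 and G9a cKO replicates 2 and 3. What this title number marks is not stated. Nothing in the labels says whether libraries came from separate animals, so p-values measure the spread between these samples, which may be technical. The table lists 38540 transcribed loci, assembled from oocyte RNA and annotated genes. All loci with reads in at least 2 of the 6 libraries were taken as members, and 23343 loci (60.57% of the table) met that rule. Of these, 14979 had reads in all 6 libraries, 1053 only in G9a cKO libraries and 420 only in control libraries. Members that passed through 1 group alone had to differ between the groups, so counts over members are descriptions.

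G9A, with its partner GLP (the product of Ehmt1), places mono- and dimethylation on lysine 9 of histone H3, a mark linked to gene silencing. H3K9me2, the dimethyl mark, covers broad domains of chromatin and is read by proteins that keep genes off. GV oocytes no longer divide and store large amounts of maternal RNA for use after fertilization. A level in these cells is a balance between earlier transcription and the stability of stored RNA. In such pooled samples, fewer cells of a type and less RNA per cell cannot be told apart.

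The 6 libraries held between 1458868 and 2395356 reads, and G9a cKO replicates 1 and 3 were deeper than every control. Levels are RPM, the reads at a locus scaled to a library of 1000000, on a log2 scale, on which a locus without reads stands at the level of 0.9 read. Because the G9a cKO libraries were deeper, a locus with 0 reads in all 6 libraries shows a log2 difference of -0.32 that carries no RNA. Ehmt2 had 12, 13 and 9 reads in the controls against 5, 11 and 2 reads in the G9a cKO libraries. The library labelled G9a cKO replicate 2, with 11 reads, lay within the control range. Ehmt2 fell short of the threshold, with a log2 fold change of -1.55 (n = 3 and 3, SE 0.51) and an adjusted p of 0.0971 (limma), and of -2.25 with an adjusted p of 0.0154 without that library. Without G9a cKO replicate 3 it was -0.911 (adjusted p = 0.378), and the other 4 fits that leave out 1 library gave an adjusted p of 0.120 to 0.293. Reads over the whole gene can include undeleted exons. The partner gene Ehmt1 had a log2 fold change of 0.08 (adjusted p = 0.771, SE 0.18) over 104 to 166 reads in each library, a difference smaller than the SD of the controls (0.28).

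The labelled cell type was checked against marker lists. The 19 oocyte markers with member loci summed to between 23460 and 24080 RPM in controls and between 24660 and 25430 RPM in G9a cKO. The 20 markers of granulosa and theca cells, which surround the oocyte, summed to between 462.0 and 525 RPM in controls and between 386 and 442 RPM in G9a cKO, and limma called none (5 at an unadjusted p under 0.05, 2 with precision weights). Most of that sum lay in Serpine2, Nr5a2, Esr2 and Cyp19a1. The defining granulosa genes Foxl2 and Amh had at most 4 reads in any of the 6 libraries. Fshr, the receptor of follicle-stimulating hormone, had 3, 0 and 5 reads in controls and 11, 8 and 14 in G9a cKO (adjusted p = 0.0971). Stromal, endothelial and immune markers summed to between 157 and 190 RPM in controls and between 148 and 172 RPM in G9a cKO, and limma called none of 9 members (1 at an unadjusted p under 0.05, 0 with precision weights). No blood marker was a member. The part of other cells in the differences below was not tested.

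In G9a cKO, 405 loci were higher and 284 lower at an adjusted p under 0.05, which together are 1.79% of the 38540 loci tested (1.05% higher and 0.737% lower). A log2 fold change of at least 1 in size was met by 263 of the 405 higher and 130 of the 284 lower loci, while 55 higher and 64 lower loci changed by less than 0.5. Among the 10820 members with at most 3 RPM in controls, 128 (1.18%) were called higher and 7 (0.0647%) lower. Among the 2467 members above 100 RPM, 61 (2.47%) were called higher and 98 (3.97%) lower. Over all members 1.74% were called higher and 1.22% lower. The share called lower climbed with control level, from 0% up to 1 RPM to 6.46% above 300 RPM, where reads are many. The share called higher did not climb steadily. It was 0.859% up to 1 RPM, 2.49% from 3 to 10 RPM, 1.74% from 30 to 100 RPM and 3.16% above 300 RPM. At low levels a loss has little room to be seen, and the floor of 0.9 read bounds it. The 3 values of one group lay fully outside those of the other for 389 higher and 258 lower called loci, against 5409 loci (14% of the table) in either direction. Scaling mattered for the count: on log2(RPM + 1) limma called 34 loci (25 higher, 9 lower) and after quantile normalization 30 (24 higher, 6 lower), and restricted to members these scalings called 743 and 451.

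**Figure D1:**
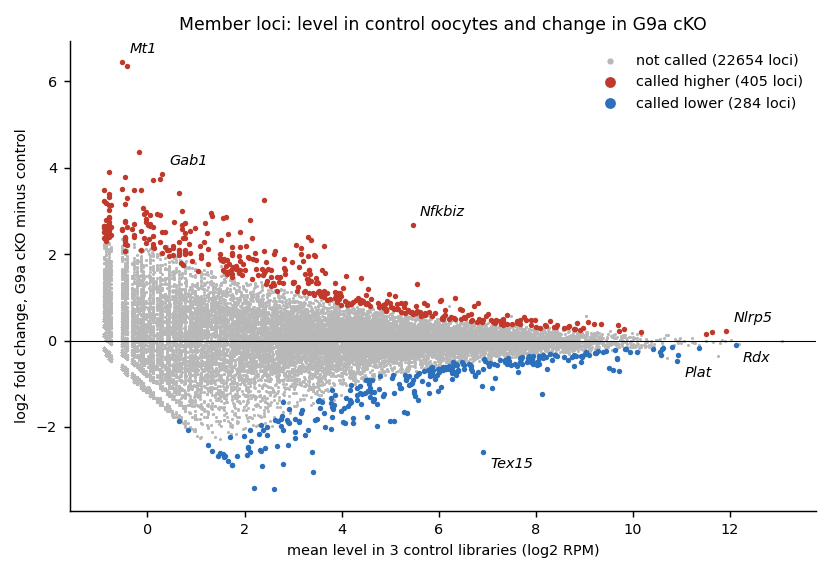
Each point is 1 of the 23343 member loci, with its mean level in the 3 control libraries on the x axis (log2 RPM) and its log2 fold change, G9a cKO minus control, on the y axis. The 405 loci called higher (red) span the whole range of control levels, while 7 of the 284 called lower (blue) lie at or under 3 RPM.

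The kind of locus differed between the directions. Members with a gene symbol on their own strand numbered 12373, of which 233 (1.88%) were called higher and 212 (1.71%) lower. Of 5881 members that overlap no annotated gene, 118 (2.01%) were called higher and 19 (0.323%) lower. Of 4303 members antisense to an annotated gene, 51 were called in each direction. These classes were not matched for control level, and falls were seldom called at low level (0.0647% of members at up to 3 RPM in controls). The part of level in the difference between classes was not tested. Called loci were long: the median span was 24681 bases for higher and 28451 for lower loci, against 15736 over all members. Among the 4669 shortest members (up to 3948 bases) 0.921% were called, and among the 4669 longest (from 52148 bases) 4.48%, and read depth per locus moves with length. Of the 9768 members that overlap a locus on the opposite strand 2.80% were called, close to the 3.06% of the other 13575. In 9 of the 33 called opposite-strand pairs the read sums over the 6 libraries differed by at most 10%.

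The called loci were read in each library. Taken 1 library at a time against the mean of the controls, the 405 higher loci had a median log2 difference of 1.46, 1.53 and 1.43 in replicates 1, 2 and 3. The 284 lower loci had medians of -0.71, -0.91 and -0.84. The library labelled G9a cKO replicate 2, which lay in the control range for Ehmt2, did not have the smallest medians at these loci. All 6 libraries entered the choice of these loci, so the medians are a description. Of the 689 calls, 219 held in all 6 fits that leave out 1 library.

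**Figure D2:**
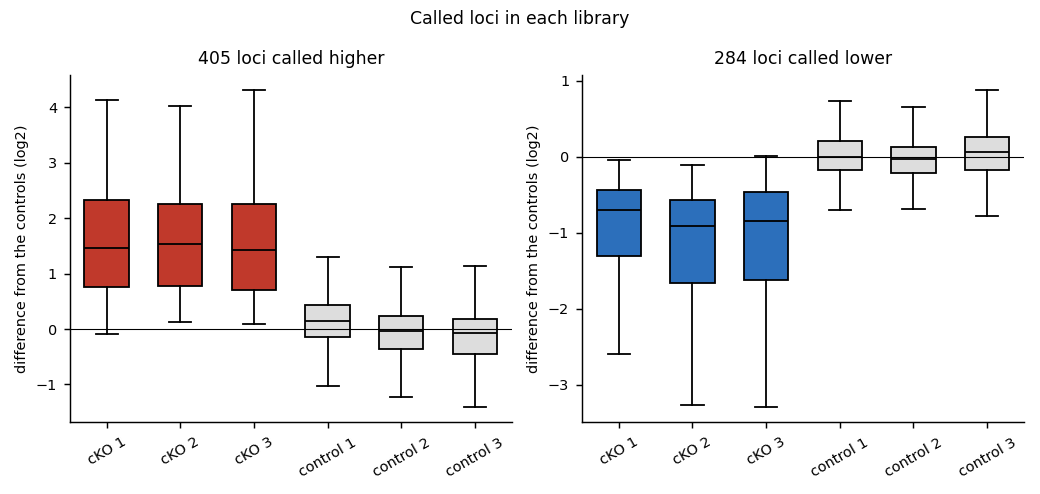
Boxes show, for the 405 loci called higher (left) and the 284 called lower (right), the log2 difference of each library from the controls, as quartiles with whiskers to 1.5 times the box height and no outlying points. G9a cKO libraries are set against the mean of the 3 controls and each control against the other two controls; the medians of the 3 G9a cKO libraries lie between 1.43 and 1.53 on the left and between -0.91 and -0.71 on the right.

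The largest rise belonged to Mt1, which encodes metallothionein 1, a small protein that binds zinc and other metals. Mt1 (chr8:94179089-94180325, GRCm38, + strand) had 2, 0 and 0 reads in the controls and 124, 116 and 145 in the G9a cKO libraries. The groups were far apart, with a log2 fold change of 6.44 (SE 0.48) and an adjusted p of 3.67e-36. It was the 1 called gene of 12 in the list of metallothioneins and metal handling. Whether the reads at this locus came from the Mt1 gene itself was not tested. The locus TCONS_00101040, which covers Mt1 on the opposite strand (chr8:94176588-94194190), had nearly the same counts, with 2, 1 and 1 against 124, 116 and 147 reads. Whether the counting used strand is not given in the sources used here, so the RNA of such partners cannot be told apart.

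Gab1, a scaffold that links receptor tyrosine kinases to ERK and PI3K signalling, had 3, 3 and 1 reads in controls and 49, 24 and 46 in G9a cKO. Its pooled level was 13.6-fold higher (95% exact interval 6.39 to 34.5, counting error only; adjusted p = 9.79e-12). Ephb1, a receptor for membrane-bound ephrins, had 4, 2 and 1 against 49, 22 and 34 reads, a rise of 5.62-fold to 30.6-fold by the same interval (adjusted p = 3.64e-11). All values of both genes were above every control, a condition of their choice. Etv5, a transcription factor downstream of FGF signalling, had 2, 1 and 0 against 29, 31 and 10 reads (adjusted p = 2.33e-09). Arhgap22, a GTPase-activating protein that acts on Rac, had 15, 23 and 15 against 127, 105 and 94 reads, with a log2 fold change of 2.32 (adjusted p = 3.24e-17, SE 0.25).

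Nfkbiz, which encodes an atypical nuclear IkB protein that shapes inflammatory gene expression, had the smallest adjusted p of all loci. Its level was 43.2, 47.7 and 41.6 RPM in the controls and 317, 268 and 264 RPM in the G9a cKO libraries. The log2 fold change was 2.68 (SE 0.14) and the adjusted p 3.71e-72. Within the title number of control replicates 1 and 2 the difference was 2.80, and within the other it was 2.67.

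Zscan4d, a member of a gene cluster known for its burst of expression in two-cell embryos, had 5, 6 and 4 reads in controls and 34, 61 and 41 in G9a cKO (7.25-fold, 4.24 to 13.3; adjusted p = 1.52e-09). Near-identical copies exist in its cluster and reads may be split among them. D1Pas1, an autosomal testis-expressed relative of the DEAD-box helicase Ddx3, had 4, 6 and 1 against 33, 16 and 26 reads (adjusted p = 2.28e-04). Zfp536, a zinc finger repressor known from neural cells, had 2, 0 and 2 against 31, 9 and 35 reads (adjusted p = 1.13e-05). Groups did not overlap in any of these genes, a condition of their choice. Each stayed called in all 6 fits that leave out 1 library, but D1Pas1 and Zfp536 lost their call without a variance trend and robust fitting. Zscan4d, D1Pas1 and Zfp536 all lost it on log2(RPM + 1) and after quantile normalization over all loci.

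The remaining genes among the 15 largest rises, ranked among called genes with at least 10 RPM in the higher group, had low control counts too. Ugt2b5, a glucuronosyltransferase of liver, had 3, 15 and 3 reads against 58, 37 and 48. Serpinb3a, a serine protease inhibitor, had 4, 10 and 8 against 49, 26 and 46. Limch1, an actomyosin regulator, had 0, 3 and 1 against 22, 34 and 10. AC091683.1 (6 control reads in all), D16Ertd472e and Sobp rose by 3.71, 2.75 and 2.61 on the log2 scale. Adjusted p-values over these 6 genes ran from 1.34e-09 for AC091683.1 to 3.24e-04 for Sobp.

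**Figure D3:**
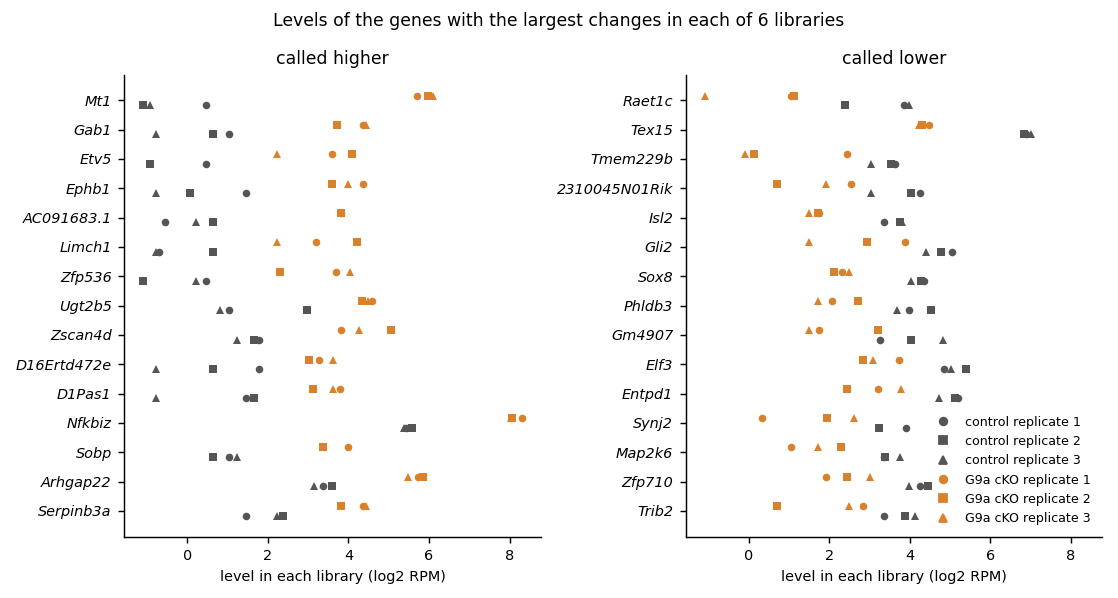
Level (log2 RPM, with 0 reads shown as 0.9 read) of the 15 genes with the largest rises (left) and the 15 with the largest falls (right) in each of the 3 control (grey) and 3 G9a cKO (orange) libraries, with 1 marker shape per replicate number. They were ranked among called genes with at least 10 RPM in the higher group, and some genes below that level changed more. The groups do not overlap in any of the 30 genes, a condition of their choice, and the spread within a group is widest where reads are few.

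Among falls, Tex15 stood apart. Tex15 is a germ cell protein with known roles in male meiosis and in piRNA-directed silencing. Its level was 119, 113 and 128 RPM in the controls and 22.1, 19.7 and 18.8 RPM in G9a cKO, with SDs of 0.09 and 0.12 on the log2 scale. It fell by 2.57 on the log2 scale (SE 0.18, adjusted p = 1.64e-42). Taok3, a stress-responsive kinase that was named after its values were seen, fell by less and stood at a higher level. It was at 251, 291 and 302 RPM in controls and, from 370, 199 and 218 reads, at 103 to 154 RPM in G9a cKO (fall of 1.23 on the log2 scale, SE 0.11, adjusted p = 4.96e-26). The neighbouring gene Suds3, on the opposite strand, was at 118 to 125 RPM in controls and 85.2 to 98.1 RPM in G9a cKO (adjusted p = 0.0395), and was called in 1 of the 6 fits that leave out 1 library, with adjusted p of 0.0656 to 0.183 in the others.

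The 15 largest falls, ranked among called genes with at least 10 RPM in the higher group, included the transcription factor genes Gli2, Sox8, Elf3 and Isl2. Gli2, the activator at the end of hedgehog signalling, had 32.9, 27.2 and 21.1 RPM in controls and 14.6, 7.65 and 2.83 RPM in G9a cKO (adjusted p = 1.26e-08). The G9a cKO libraries differed widely among themselves at Gli2, with SDs of 0.32 and 1.19 on the log2 scale in controls and G9a cKO. Sox8, an SRY-related factor, had 30, 37 and 28 reads against 12, 8 and 12 (adjusted p = 3.64e-04). Elf3, an epithelial ETS factor, had 42, 80 and 55 reads against 32, 13 and 18, a log2 fold change of -1.86 (adjusted p = 4.97e-11, SE 0.25). Isl2, a LIM homeodomain factor, had 15, 26 and 24 against 8, 6 and 6 reads (adjusted p = 0.00193). In each of these genes the highest G9a cKO level stayed below the lowest control, a condition of their choice.

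Raet1c, a ligand of the natural killer cell receptor NKG2D, had 21, 10 and 27 reads in controls and 5, 4 and 1 in G9a cKO (adjusted p = 5.88e-05). Entpd1, the ectonucleotidase CD39, had 53, 66 and 45 against 22, 10 and 29 reads (adjusted p = 1.52e-09). Map2k6, a kinase that activates p38, had 15, 20 and 23 against 5, 9 and 7 reads (adjusted p = 0.00136). Tmem229b, 2310045N01Rik, Phldb3 and Zfp710 fell by 2.57, 2.05, 1.90 and 1.78 on the log2 scale. The calls of 3 genes were lost when certain single libraries were left out. All 3 were also lost on log2(RPM + 1), after quantile normalization, and without a variance trend and robust fitting. Those of Gm4907 and Synj2 were lost as well when only members were tested. Gm4907 (adjusted p = 2.43e-04) reached 0.0557 without control replicate 3. Trib2, a pseudokinase, reached 0.128 without the library labelled G9a cKO replicate 2. Synj2, an inositol phosphatase, reached 0.132 to 0.408 without control replicate 1 or G9a cKO replicate 1. Dmp1, a bone matrix protein named after its values were seen, had 5, 13 and 7 reads in controls and 0 in all G9a cKO libraries, at least 10.4-fold lower against a floor of 3 reads over the group.

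At the other end of the range, the most abundant called RNAs moved little. Nlrp5, a subunit of the subcortical maternal complex that the embryo needs for its first divisions, was at 4096, 3710 and 3821 RPM in controls and 4642, 4605 and 4243 RPM in G9a cKO. That is a log2 fold change of 0.21 (adjusted p = 2.00e-07, SE 0.03), and it held in all 6 fits that leave out 1 library. The call on Nlrp5 was lost with precision weights, and also without a variance trend and robust fitting. It was lost as well on log2(RPM + 1) and after quantile normalization over all loci. Padi6, which works in the same complex and in the oocyte's cytoplasmic lattices, rose by 0.20 on the log2 scale (adjusted p = 1.84e-05, 0.0784 without control replicate 3). Wnk1, a kinase that controls ion transport, rose by 0.36, and Astl, the protease ovastacin that hardens the zona pellucida after fertilization, by 0.39 (adjusted p = 7.54e-07 and 1.57e-04). Zp2, the zona pellucida protein that ovastacin cleaves, was at 2837 to 2930 RPM in controls and 3131 to 3265 RPM in G9a cKO (adjusted p = 0.0332). The call on Zp2 was lost in each of the 6 fits that leave out 1 library, with adjusted p of 0.0571 to 0.161.

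Falls among abundant RNAs were of the same small size. Plat, the tissue plasminogen activator whose stored RNA is translated at meiotic resumption, was at 1884, 1863 and 2022 RPM in controls and 1482, 1203 and 1491 RPM in G9a cKO. It fell by 0.47 on the log2 scale (SE 0.05, adjusted p = 3.21e-17). Mphosph6, an exosome cofactor, fell by 0.34 (SE 0.05, adjusted p = 1.52e-09). Calr, the calcium-binding chaperone calreticulin, fell by 0.26 (SE 0.05, adjusted p = 1.09e-04). These 3 genes kept their call in all 6 fits that leave out 1 library, but lost it without a variance trend and robust fitting. All 3 lost it after quantile normalization, of all loci or of members alone, and on log2(RPM + 1) over all loci. Plat also lost it when the controls of a second line were pooled in, and Mphosph6 with precision weights. Rdx, Mdm4, Nexn, Ktn1 and H1foo had log2 fold changes between -0.19 and -0.11. Each lost its call in 2 to 5 of the 6 fits that leave out 1 library, with adjusted p of up to 0.384. Among rises, Tgfb2 (0.28) lost it without control replicate 3 or G9a cKO replicate 1 (adjusted p of 0.0648 to 0.0732). Chd4 (0.22) kept it in 2 of the 6 fits (0.0584 to 0.206 in the others), and TCONS_00000715 (0.19), an unnamed locus antisense to Txndc9, in 4 (0.151 to 0.432 in the others).

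Promoter sequences and the H3K9me2 signal gave a view of these genes that the RNA values did not enter. Each of the next 4 runs is the 250 bases before the RefSeq start of a gene that the results turn on, a pair that rose (Gab1 and Ephb1) and a pair that fell (Taok3 and Gli2). Capitals mark CpG dinucleotides, the targets of DNA methylation. They are read 5' to 3' on the strand of the gene, from the RefSeq promoter table of GRCm38.p6, at chr8:80880520-80880769 (- strand), chr9:102354694-102354943 (- strand), chr5:117119879-117120128 (+ strand) and chr1:119053620-119053869 (- strand).
Gab1: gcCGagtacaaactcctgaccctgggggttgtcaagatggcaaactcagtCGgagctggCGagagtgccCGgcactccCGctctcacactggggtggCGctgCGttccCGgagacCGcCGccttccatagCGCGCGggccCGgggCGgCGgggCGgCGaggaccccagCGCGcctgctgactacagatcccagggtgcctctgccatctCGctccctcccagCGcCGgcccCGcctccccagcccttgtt
Ephb1: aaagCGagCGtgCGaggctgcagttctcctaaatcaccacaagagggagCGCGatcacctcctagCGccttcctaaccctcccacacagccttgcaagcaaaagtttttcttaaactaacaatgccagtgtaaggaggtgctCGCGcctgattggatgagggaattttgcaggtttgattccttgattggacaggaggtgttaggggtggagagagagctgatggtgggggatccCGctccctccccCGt
Taok3: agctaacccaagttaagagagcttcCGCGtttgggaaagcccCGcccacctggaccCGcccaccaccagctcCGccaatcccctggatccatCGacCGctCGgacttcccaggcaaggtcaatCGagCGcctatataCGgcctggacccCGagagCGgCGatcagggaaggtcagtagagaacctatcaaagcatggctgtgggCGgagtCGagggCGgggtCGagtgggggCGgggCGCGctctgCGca
Gli2: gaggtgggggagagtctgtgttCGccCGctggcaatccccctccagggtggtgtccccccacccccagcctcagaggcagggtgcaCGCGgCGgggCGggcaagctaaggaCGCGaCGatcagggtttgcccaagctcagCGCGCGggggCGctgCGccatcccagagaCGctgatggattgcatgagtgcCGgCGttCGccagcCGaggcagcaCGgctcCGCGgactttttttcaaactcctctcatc

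The start of the oocyte locus lay 14 bases from the RefSeq start for Gab1 and at it for the other three. Gab1 held 24 CpG and a GC content of 70.8%, Ephb1 10 CpG and 54%, Taok3 22 and Gli2 22. A CpG-rich promoter was thus present in genes of both directions. H3K9me2 over the gene, as RPM in each 10 kb window, was 3.69 and 4.59 in the 2 control ChIP libraries and 2.48 and 2.84 in the 2 G9a cKO ChIP libraries for Gab1. For Ephb1 the values were 4.81 and 5.32 against 4.25 and 3.46. For Taok3 they were 3.51 and 3.14 against 4.61 and 5.47, and for Gli2 5.50 and 5.71 against 3.98 and 5.25. These 4 genes do not stand for the rest. Of the 14 largest rises with ChIP windows, H3K9me2 was lower in both G9a cKO libraries than in both controls over 4, higher in both over 5 and overlapping over 5. Among those higher were AC091683.1 (3.09 and 3.92 against 7.67 and 5.86) and Ugt2b5 (3.92 and 3.98 against 5.63 and 4.77). Of the 15 largest falls, 5 were lower in both, 1 higher and 9 overlapping. Over all members the mark was lower in both at 26.2% of loci and higher in both at 34.3%. The shares among the rises, 28.6% and 35.7%, were close to these, and among the falls they were 33.3% and 6.67%. Some placements rest on few G9a cKO ChIP reads, as at Zscan4d (3 and 3), Raet1c (2 and 3) and Sox8 (4 and 2). With 2 libraries a group no exact test can go under p = 0.33, and none was made.

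Over all loci the match of promoters was incomplete. Of the 12373 members with a symbol, 8431 matched an entry of the promoter table, as did 316 of the 445 called. The oocyte locus began within 1000 bases of the RefSeq start for 78.3% of matched members, 68.6% of those called higher and 78.3% of those called lower. The median number of CpG in the 250 bases was 16 over all such members, 17 in higher and 14 in lower loci. Among members at up to 10 RPM in controls it was 13, and 11 for those called higher. The E-box CANNTG, searched on both strands, was in 57.3% of all such promoters, 54.1% of those called higher and 62.6% of those called lower. The core of the metal response element (TGCACNC or TGCGCNC, both strands) was in 31.4%, 34.9% and 26.0%, and the cAMP response element TGACGTCA in 2.98%, 3.67% and 4.88%. A match is a description of letters and shows no binding.

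Gene lists chosen by function place these genes in their pathways. Over all 23343 members, 2.95% were called and the median log2 fold change was -0.00497. Among receptor tyrosine kinase and ERK signalling genes, 2 of 40 rose (Gab1 and Etv5) and 1 fell, with a list median of 0.12. The gene that fell was Spry4, an inhibitor of the pathway, by 0.36 on the log2 scale (adjusted p = 0.00474, but 0.0566 to 0.289 in 3 of the 6 fits that leave out 1 library). Of the 17 Eph receptors and ephrins, the receptors Ephb1 and Epha4 rose and the ligands Efna1 and Efna2 fell. Epha4 was at 85.9 to 99.6 RPM in controls and 113 to 153 RPM in G9a cKO (log2 fold change 0.53, adjusted p = 0.0120). Efna1 had 13, 10 and 12 against 9, 6 and 3 reads, and Efna2 10, 11 and 10 against 2, 6 and 4. Apart from Ephb1, the 3 calls held in 2 or 3 of the 6 fits that leave out 1 library (adjusted p of up to 0.378 in the others). With limma, no gene was called among 23 of PI3K and mTOR signalling, 25 of Wnt signalling or 22 of p53 and apoptosis. At an unadjusted p under 0.05 these lists held 4, 6 and 3 genes, and with precision weights 0 were called in each.

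The 5 lists of chromatin regulators held 0 to 2 called genes each, from 0% of H3K9 methyltransferases to 13.3% of the DNA methylation machinery, against 2.95% over all members. None of 14 H3K9 methyltransferases and G9A partners was called by limma (3 at an unadjusted p under 0.05, 0 with precision weights), with a list median of 0.07. Among 18 genes of H3K4 methylation, Setd1b, the catalytic subunit of a COMPASS complex, rose from 74.4 to 96.0 RPM in controls to 114 to 173 RPM in G9a cKO (0.73 on the log2 scale, SE 0.14, adjusted p = 1.08e-04). Among 28 Polycomb genes, Jarid2, a cofactor of PRC2, rose from 198 to 228 RPM to 251 to 359 RPM (0.54 on the log2 scale, SE 0.10, adjusted p = 5.74e-05). Both held in all 6 fits that leave out 1 library, and both lost their call without a variance trend and robust fitting. Setd1b and Jarid2 also lost it on log2(RPM + 1) and after quantile normalization over all loci. Of 15 genes of DNA methylation, Dppa3, which protects maternal chromatin from demethylation, fell by 0.36 (SE 0.07, adjusted p = 8.38e-05) from 450 to 546 RPM to 371 to 399 RPM. Tdg, of the same list, and Cbx3, the 1 call among 11 H3K9 demethylases and HP1 readers, were also called but at 0 to 11 reads, and held in 1 and 3 of the 6 fits (adjusted p of up to 0.193 in the others).

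Calls in the lists of the oocyte's own programme went in both directions, and the called share ran from 0% of meiotic prophase genes to 27.3% of zona pellucida and fertilization genes. Many of these genes are abundant, and above 300 RPM in controls 9.61% of members were called. In the list of subcortical maternal complex and maternal effect genes, Nlrp5 and Padi6 rose, and Dppa3, H1foo and E330034G19Rik fell, of 24 members. Of 11 zona pellucida and fertilization genes, Zp2 and Astl rose and Pla2g4c fell, the last in 3 of the 6 fits that leave out 1 library (adjusted p of 0.0577 to 0.337 in the others). Of 25 oocyte transcription factors, Stat3 rose by 0.49 (SE 0.10, adjusted p = 3.16e-04) and was at 284 to 289 RPM in all 3 G9a cKO libraries against 186 to 234 RPM in controls. Nr6a1, Obox2 and Obox3 (the last of a family of similar copies whose reads may be split) were called too, each in at most 3 of the 6 fits that leave out 1 library (adjusted p of up to 0.362 in the rest). Of 33 genes of meiotic arrest and resumption, 1 was called: Ccnb3, a cyclin needed for the first meiotic anaphase, which fell from 65.5 to 93.8 RPM to 39.3 to 45.5 RPM (-0.90 on the log2 scale, SE 0.17, adjusted p = 5.87e-05). Of 29 genes of meiotic prophase and cohesin limma called none (7 at an unadjusted p under 0.05, 1 with precision weights). Of 37 genes of maternal mRNA storage and decay, Btg4, an adaptor of the deadenylase that clears maternal RNA, fell by 0.33 (adjusted p = 9.76e-04, 0.0535 to 0.0810 without control replicate 3 or the library labelled G9a cKO replicate 2). In that list 4921513D23Rik rose by 0.42 and Eif4e1b, an oocyte form of the cap-binding protein eIF4E, fell by 0.24, in 1 and 2 of the 6 fits (adjusted p of up to 0.251 in the others). Of 27 genes of small RNA silencing, the helicase gene Mov10 fell by 1.18 (28, 48 and 45 against 36, 11 and 26 reads, adjusted p = 7.02e-04, but 0.128 without the library labelled G9a cKO replicate 2). Tdrd12, a piRNA pathway gene of the same list, fell by 0.54 and held in 3 of the 6 fits (0.0520 to 0.221 in the others). Of 23 germline genes silenced in somatic cells, Tuba3a, a testis tubulin, fell by 0.58 (adjusted p = 3.28e-04) and held in all 6. Without a variance trend and robust fitting Tuba3a lost its call, as it did on log2(RPM + 1) and after quantile normalization over all loci. Tgfb2 was the 1 call among 24 oocyte-secreted and TGF-beta genes. In the list of replacement and linker histones, of 19 members, the calls were H1foo (lower) and Padi6 (higher). Padi6 is in that list but is not a histone gene.

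The 2-cell, canonical and non-canonical imprinted lists held 2 calls each. Of 14 genes with non-canonical imprinting, a maternal silencing kept by H3K27me3, Gab1 and Smoc1 rose and the list median was 0.51. That list is low in oocytes: Smoc1 had 0, 6 and 0 against 14, 15 and 12 reads (adjusted p = 0.00730, and 0.0696 to 0.107 in 3 of the 6 fits). Sall3 had 1, 0 and 0 against 5, 5 and 6 reads (adjusted p = 0.0862), and Slc38a4 8, 12 and 7 against 22, 19 and 28 (adjusted p = 0.222). Of the 14 genes, 10 had a positive log2 fold change and the rest did not, and 3 had at most 3 reads in every library. Of 30 canonical imprinted genes, Grb10 rose by 0.76 and Inpp5f fell by 0.94 (adjusted p = 0.0188 and 0.00163). Grb10 held in 2 of the 6 fits that leave out 1 library (0.0630 to 0.281 in the others), and Inpp5f in 5 (0.114 without control replicate 1). Of the 10 members of the 2-cell list, Zscan4d rose and Rfpl4 fell. Rfpl4 was already abundant in control oocytes, at 354 to 480 RPM, against 242 to 340 RPM in G9a cKO. Its adjusted p was 1.63e-05, and 0.0551 without the library labelled replicate 2. Usp17l5, a gene of the 2-cell stage, had 0 reads in all controls and 3, 4 and 1 in G9a cKO (adjusted p = 0.314). Of 20 pluripotency and early lineage genes limma called none (7 at an unadjusted p under 0.05, 0 with precision weights).

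Of 25 genes of oxidative and heat stress, Hsph1, a large heat shock chaperone, rose by 0.44 (SE 0.07, adjusted p = 5.48e-07), from 490 to 571 RPM to 687 to 757 RPM. Txnrd1, the cytosolic thioredoxin reductase, fell by 0.55 (SE 0.10, adjusted p = 3.75e-05), and Hspa5 (log2 fold change -0.30) held in 2 of the 6 fits (0.0629 to 0.260 in the others). Cytosolic ribosomal proteins gave 2 calls of 71 with a median of -0.06, mitochondrial ribosomal proteins 1 of 51 (-0.16), oxidative phosphorylation 1 of 77 (-0.09) and the proteasome 1 of 34 (-0.19). Among larger families, zinc finger proteins of the Zfp series gave 6 rises and 3 falls of 276 (3.26%). Zfp939 was the firmest fall among them after Zfp710, at 80.1 to 85.7 RPM in controls and 42.9 to 49.7 RPM in G9a cKO. Solute carriers gave 2 rises and 3 falls of 200, ion channels 3 and 2 of 104, and homeobox, Pax, Sox, Fox, Gata and Tbx factors 1 and 1 of 56. Cadherins and synaptic adhesion genes gave 2 rises and 1 fall of 46, and kinesins and dyneins 1 rise of 57. Among 140 ubiquitin ligase genes, 3 rose, with Fbxo16 at 27, 44 and 20 reads in controls and 99, 91 and 116 in G9a cKO (2.69-fold, 2.12 to 3.44; adjusted p = 2.02e-07). Of 40 olfactory receptor loci limma called none (4 at an unadjusted p under 0.05, 0 with precision weights).

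**Figure D4:**
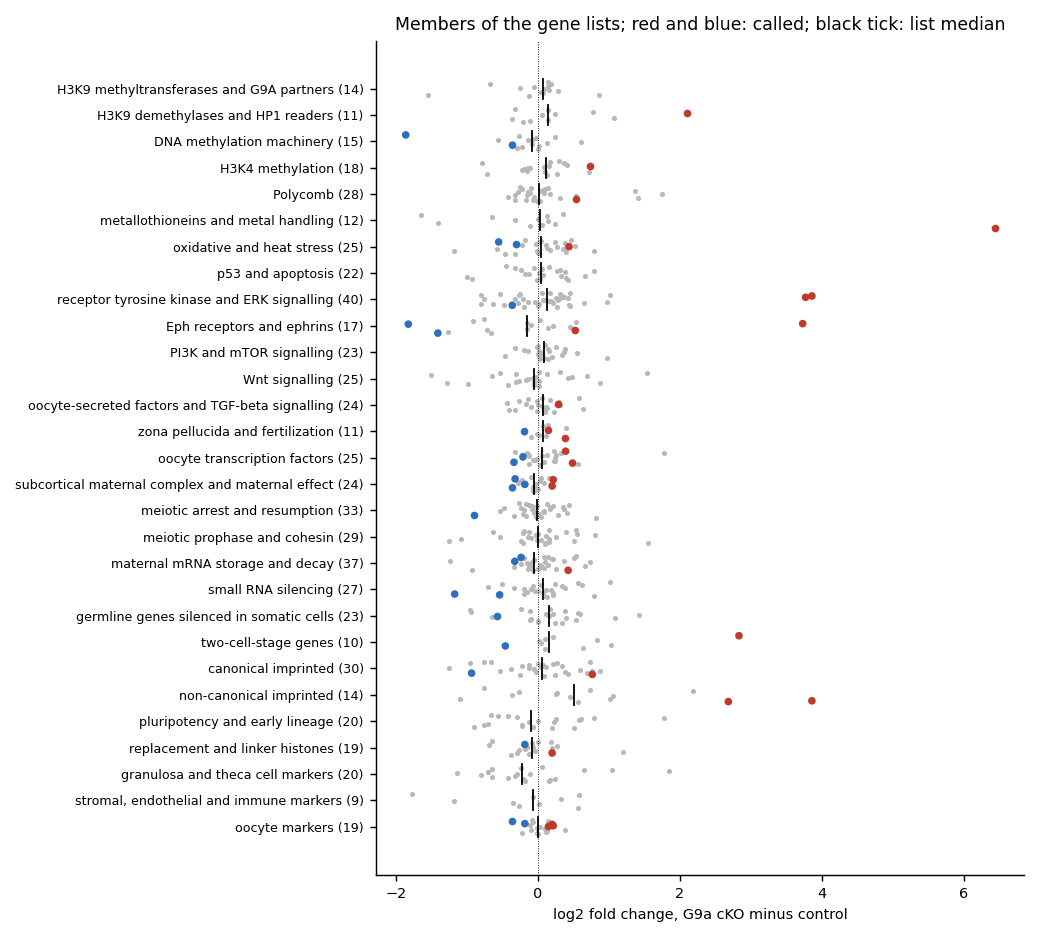
Log2 fold change (x axis, G9a cKO minus control) of every member gene of the functional and marker lists (rows, with the number of members in brackets), called genes in red (higher) or blue (lower), other genes in grey and the list median as a black tick. Most lists centre near 0, and the largest values are single genes such as Mt1 (6.44), Gab1 (3.86) and Ephb1 (3.73).

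Loci without a gene symbol held large rises as well. TCONS_00022131 (chr12:47542545-47545550, + strand), which overlaps no annotated gene, had 4, 0 and 0 reads in controls and 37, 41 and 37 in G9a cKO (4.37 on the log2 scale, SE 0.52, adjusted p = 9.26e-14). TCONS_00093073 (chr7:17635299-17640629, - strand), also outside annotated genes, had 7, 14 and 7 against 126, 106 and 85 reads (9.05-fold, 6.14 to 13.8; adjusted p = 2.14e-25). TCONS_00019092, antisense to the sulfotransferase gene Hs3st3a1, had 6, 3 and 1 against 47, 27 and 34 reads. Falls were smaller. CUFF.19128.1, a locus of 2034 bases antisense to Dlg1, had 46, 81 and 76 reads in controls and 28, 27 and 24 in G9a cKO (-1.64 on the log2 scale, SE 0.23, adjusted p = 2.17e-09). Dlg1 itself, a scaffold of cell polarity named after its values were seen, fell by 0.71 (SE 0.15, adjusted p = 4.04e-04). TCONS_00022000, TCONS_00043328 and TCONS_00070769 fell by 1.68, 1.58 and 1.57. TCONS_00022000 lost its call without control replicate 3 or the library labelled G9a cKO replicate 2 (adjusted p of 0.0586 to 0.0831), and TCONS_00070769 without control replicate 1 or G9a cKO replicate 3 (0.0748 to 0.0770).

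Called loci were mostly scattered. Within 100 kb of another call in the same direction lay 56 of the 405 higher loci, in 27 runs, and 43 of the 284 lower loci, in 21 runs. No run held more than 3 loci. The runs of 3 higher loci included Zscan4d with 2 unnamed neighbours on chromosome 7. Several runs paired a gene with a locus on its opposite strand, as at Mt1 and Arhgap22.

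By chromosome, the X had the highest share of members called higher, 3.22% (28 of 870), and the autosomes ranged from 0.822% to 3.02%. Called lower were 5 X-linked members (0.575%), a share close to that of chromosome 19 (0.563%). The share on the X was chosen for description after all chromosomes were seen, and it is close to that of the highest autosome. The X-linked genes called higher included Pet2, Gpc3, Hmgb3 and Usp11, all named after their values were seen. Hmgb3, a chromatin-bound HMG-box protein, was at 35.6, 26.7 and 42.8 RPM in controls and 71.8, 72.7 and 67.3 RPM in G9a cKO (1.04 on the log2 scale, SE 0.20, adjusted p = 4.79e-05). Usp11, a deubiquitinase, was at 37.7, 36.7 and 45.1 against 76.4, 71.6 and 70.6 RPM (adjusted p = 3.24e-04). Gpc3, a glypican of the cell surface, had 19, 14 and 17 against 68, 46 and 54 reads. Pet2 had 21, 20 and 22 against 185, 86 and 106 reads (adjusted p = 5.01e-14). Reads at X-linked loci were 2.45% to 2.49% of the total in controls and 2.54% to 2.55% in G9a cKO. The X was not alone in this. The share was also higher in every G9a cKO library on chromosome 15 (3.30% to 3.36% against 3.39% to 3.42%). It was lower in every G9a cKO library on chromosome 8 (5.30% to 5.34% against 5.13% to 5.265%).

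The table also holds 2 libraries labelled cDKO, in which both Ehmt2 and Ehmt1 are targeted, and 3 controls of that line (GKAQ). In that comparison 6.34% of loci were called. The effects of cDKO and of G9a loss alone differed by the interaction test of limma at 1.08% of loci, and these included 23 of the 405 loci called higher in G9a cKO and 48 of the 284 called lower. At 11 of the 23 and 40 of the 48 the change was smaller or opposite in cDKO. The sign was the same in cDKO at 374 of the 405 and 225 of the 284. In cDKO 251 of the 405 were called in the same direction and 2 in the opposite one. Of the 284, 100 were called in the same direction and 8 in the opposite one. Median log2 fold changes were 1.54 in G9a cKO and 1.29 in cDKO over the 405, and -0.88 and -0.43 over the 284. Loci were chosen for their change in G9a cKO, so a smaller median elsewhere is in part set by that choice.

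H3K9me2 was measured in other oocyte samples, with 2 control ChIP libraries of 7048784 and 19128881 reads and 2 G9a cKO ChIP libraries of 1857144 and 1109191 reads. It was scaled to the total of each library, so a loss over the whole genome would not show in these values. Over the loci called higher, the median H3K9me2 was 4.07 and 4.14 RPM per window in controls and 3.95 and 4.02 in G9a cKO. Over the loci called lower it was 3.76 and 3.75 against 3.95 and 4.36. All members gave 3.86 and 3.83 against 3.77 and 4.06, so in G9a cKO the values of loci called higher lay between those of all members. The mark was lower in both G9a cKO libraries than in both controls over 120 of 403 loci called higher (29.8%) and 65 of 283 called lower, against 26.2% of all members. It was higher in both over 34.7% and 41.7%, against 34.3% of all members. At members with at most 3 RPM of RNA in controls, the called higher went from 4.32 and 4.37 to 3.95 and 4.01, and all such members from 4.11 and 4.08 to 3.77 and 4.06. The difference between these sets of loci was not tested.

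X-linked members lay apart in the ChIP data. Their median H3K9me2 was 4.05 and 4.04 in controls and 3.23 and 3.15 in G9a cKO, and for the 28 called higher it was 4.45 and 4.46 against 3.45 and 2.93. Autosomal members gave 3.83 and 3.82 against 3.82 and 4.06. Over whole chromosomes the X was not alone. Mean H3K9me2 per window was lower in both G9a cKO libraries than in both controls on 6 chromosomes, among them the X (3.75 and 3.69 against 3.55 and 3.37), chromosome 14 (3.89 and 3.81 against 3.59 and 3.38) and chromosome 16 (4.03 and 4.08 against 3.61 and 3.48). It was higher in both on 7 chromosomes. The depth of the G9a cKO ChIP libraries was far below that of the controls, and its part in these differences was not tested.

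**Figure D5:**
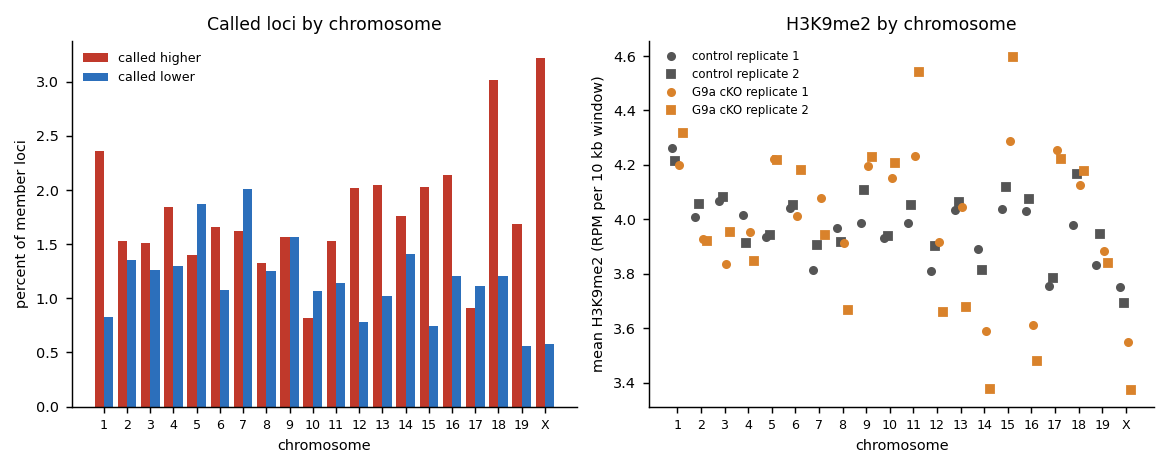
Left, the percent of member loci on each chromosome called higher (red) or lower (blue) in G9a cKO; right, the mean H3K9me2 signal per 10 kb window (RPM, axis not from 0) on each chromosome in the 2 control and 2 G9a cKO ChIP libraries. The X has the highest share called higher (3.22%). Its H3K9me2 was the lowest of all chromosomes in both controls (3.75 and 3.69) and among the lowest in G9a cKO (3.55 and 3.37).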

How the data were processed

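RNA-seq of pooled GV oocytes was analysed from a deposited table of 38540 loci in 11 libraries, and H3K9me2 ChIP-seq from a deposited table of 272158 windows of 10 kb. Values in both tables are log2 RPM made by the authors before deposit, per the file headers, with 0.9 read given to empty features. The submitters' processing notes name Trim Galore, Bowtie2, HISAT2 2.1.0, Bismark 0.19.0 and GRCm38. Which tool served which step, the counting and its use of strand are not given in the sources used here. Whole reads were recovered for 100% of values (within 0.02 of a whole number) and are given as reads. Reads at loci sum to slightly more than the library total, since overlapping loci share reads.

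The 23343 members, the gene lists and the tests were chosen with earlier results of these data known. The deposited log2 values were fitted with limma 3.58.1 (R 4.3.3) over all 11 libraries, with 1 mean per group and a trended, robust variance, so 5 libraries of another line (a G9a and GLP double knockout, cDKO, and its controls) add to the estimate of the spread. P-values are two-sided, Benjamini-Hochberg adjusted over all 38540 loci and called at 0.05. The fit was tested on simulated data. Pooled fold changes carry an exact 95% interval that covers counting error only. Depth was 1458868 to 2395356 reads in the 6 libraries compared, so 1 read is worth 0.417 to 0.685 RPM.

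Genes were named by a rule: among called loci with a symbol, no overlap between the groups and at least 10 RPM in the higher group, the 15 with the largest and the 15 with the smallest log2 fold change, the 8 most abundant called loci in each direction, called members of the lists, the 4 loci without a symbol at each end, Ehmt2 and Ehmt1. Others are said to be named after their values were seen. The alternatives were other scalings, filters, pooled controls, variance models, precision weights (voom of limma on the whole reads), the title number as a block and leaving out each library. Title numbers were not taken to pair samples, since no label says so and fewer than 3 pairs exist.

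Left out were 1 row without a locus name, 4 ChIP columns whose names match no sample, the bisulfite libraries, the input and IgG libraries. ChIP values were averaged over the windows each locus overlaps. Promoters come from the RefSeq table of GRCm38.p6, matched by symbol.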

Additional observations from a re-analysis of the deposited data

Results flagged for a closer look

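The effect of G9a loss alone was set against that of the cDKO, in which Ehmt1 is lost as well, by an interaction term in the same limma fit. The comparisons have separate controls. The effects differed at 417 loci (1.08% of the table). Every gene named in the text whose effects differed is given here with the difference, cDKO minus G9a cKO, on the log2 scale. The line of mice and the genotype cannot be told apart in this difference.

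Ehmt1, the second gene lost in the cDKO, was at 0.08 after G9a loss alone and at -2.06 in cDKO, a difference of -2.14 (adjusted p = 1.98e-11). Elf3, an epithelial ETS factor, had -1.86 in G9a cKO and 0.64 in cDKO, a difference of 2.51 (adjusted p = 4.65e-08). Entpd1, an ectonucleotidase, had -1.86 and -0.09, a difference of 1.77 (adjusted p = 0.00211). CUFF.19128.1, antisense to Dlg1, had -1.64 and 0.51, a difference of 2.15 (adjusted p = 1.40e-06), and Dlg1 itself differed by 0.85 (adjusted p = 0.0196). Mov10, an RNA helicase of small RNA silencing, had -1.18 in G9a cKO, a call lost without the library labelled replicate 2 (adjusted p = 0.128), and differed by 1.78 (adjusted p = 0.00105). Slc28a3, a nucleoside transporter whose fall lost its call without control replicate 1 or G9a cKO replicate 1 (adjusted p of 0.0589 to 0.0930), differed by 3.15 and Obox3, an oocyte homeobox gene, by 0.48. In these loci other than Ehmt1 the fall in G9a cKO was not matched in cDKO, where log2 fold changes ran from -0.09 for Entpd1 to 0.70 for Slc28a3.

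Rises that were not matched were those of Wnk1 (difference -0.36, adjusted p = 0.00860), Jarid2 (-0.74, adjusted p = 7.53e-04) and Hsph1 (-0.46, adjusted p = 0.00405). Changes larger in cDKO were those of Gpc3, which rose by 1.42 in G9a cKO and by 3.83 in cDKO (difference 2.41, adjusted p = 2.04e-04), and of TCONS_00022000 (difference -2.34, adjusted p = 0.0278). Among abundant RNAs, Rdx fell by 0.11 and 0.46 (difference -0.35, adjusted p = 2.96e-09) and Nexn by 0.16 and 0.61 (difference -0.45, adjusted p = 1.22e-07).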

How the results depend on the processing

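The 689 calls depended on the variance model and the scaling. Without a variance trend and robust fitting 179 loci were called (126 higher, 53 lower). With the GKAO and GKAQ controls together 1197 were called (629 higher, 568 lower), of which 532 were among the 689. On log2(RPM + 1) 34 were called (25 higher, 9 lower) and after quantile normalization 30 (24 higher, 6 lower). In the first of these fits the 8635 loci with 0 reads in all 11 libraries have no variance. Fitted to members alone, alternatives chosen after seeing the data, these scalings called 743 and 451 (256 higher in the second). Leaving out 1 library gave 379 to 579 calls, 222 to 370 higher and 157 to 245 lower, the fewest without the library labelled G9a cKO replicate 2. Without control replicate 3, 188 were lower, and without G9a cKO replicate 1, 267 were higher. The replicate block by title number called 557 loci, 475 of them shared, and among those not called by it were Efna2 (adjusted p = 0.0711), Epha4 (0.0995), Spry4 (0.172), Efna1 (0.192), Mov10 (0.0694) and TCONS_00043328 (0.0509). Deviations of the title numbers correlated by 0.116 between the groups over 8982 loci, with 2 such numbers. Precision weights called 868 (630 shared) and the 6 libraries alone 576. Of the 689 calls, 19 held in all alternatives that tested them, among them Mt1, Nfkbiz, Arhgap22, Tex15 and Pet2. Ehmt2 had a log2 fold change of -1.67 with pooled controls and -2.25 without the library labelled G9a cKO replicate 2 (adjusted p = 0.0145 and 0.0154), and ran from -2.248 to -0.911 over all fits that leave out 1 library. Ehmt1 (0.08) turned to -0.0565 with pooled controls and ran from -0.0647, without control replicate 2, to 0.214 when 1 library was left out. Over loci called higher, the log2 ratio of H3K9me2 was -0.04, and -0.00526 over windows with a read in every library, -0.23 in the window at the locus start and -0.10 without loci that overlap another on the opposite strand. Over all members it was 0.03, and -0.15 in the start window. The cause of these moves was not tested.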
